A study of Mus musculus with 6 samples.

Results

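The ribosomal protein genes of the mouse were examined for Gli3 sites at their promoters in wild-type cerebral cortex at embryonic day 15 (E15). The genes were taken by name from the protein-coding genes of the GENCODE annotation, release M21, as *Rpl* or *Rps* followed by a digit, or *Rpsa*, *Rplp0*, *Rplp1* and *Rplp2*, leaving out the *Rps6k* kinases and names ending in -ps. This gave 86 of the 21938 protein-coding genes on chromosomes 1 to 19, X and Y. Of these, 77 carry the standard names of ribosomal proteins and 7 are copies, namely *Rpl3l*, *Rpl7l1*, *Rpl10l*, *Rpl22l1*, *Rpl36al*, *Rpl39l* and *Rps27l*. The other 2 are *Rps19bp1*, which encodes a protein that binds Rps19 and is not part of the ribosome, and the retrogene *Rps27rt*.

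In ChIP-seq, an antibody pulls down chromatin carrying a protein, here Gli3, and the DNA that comes with it is sequenced. The study used 3 Gli3 ChIP libraries and 3 input DNA libraries, the latter from chromatin without immunoprecipitation, from whole dissected cortex with no transgene and no treatment. The authors joined the libraries into 1 list of peaks on the mm10 build, here called sites, with a start, an end and no height, so no value or error per replicate can be given and the depth behind a site is unknown. The list holds 4114 sites, of which 4099 lie on chromosomes 1 to 19, X and Y. Its number of rows differs from the number of sites given in the text of the study, so every share here, and every statement that a gene had no site, refers to this list only.

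Ribosomal proteins assemble with ribosomal RNA into the large (60S) and the small (40S) subunit of the cytosolic ribosome. Their genes are short, are transcribed at high levels in nearly all cells, and often host small nucleolar RNAs in their introns. Their mRNAs typically begin with a 5′ terminal oligopyrimidine tract (TOP), which starts with a C and lets the mTOR pathway set their translation. Gli3 is a zinc finger transcription factor of the Sonic hedgehog pathway. It is processed to a repressor when the pathway is off, and Gli proteins bind the sequence GACCACCCA, the GLI core.

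A gene was counted as having a promoter site when the midpoint of a site lay within 2 kb of its transcription start site (TSS), the first base of the gene in the annotation. By this measure 5 of 86 ribosomal protein genes had a site, among them *Rpl15*, *Rpl27*, *Rplp0* and *Rps29*, and the other 81 had none. The share was 5.81% (95% Wilson interval 2.51 to 12.9%), beside 6.88% of all protein-coding genes (1510 of 21938). The interval of the ribosomal protein genes includes the share of all protein-coding genes. It lies below 13.4%, the share of the 6212 protein-coding genes with a CpG-rich promoter. Such a promoter was defined by a GC content of at least 55% and an observed to expected CpG ratio of at least 0.6. Both were measured from 500 bases before to 100 after the TSS. Of the 86 members, 26 have such a promoter, and the interval of these 26 (0.682 to 18.9%) includes 13.4%. Intervals cover counting error over genes only, genes are not replicates, and no test between lists was made.

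The promoters of *Rpl15*, *Rpl27* and *Rplp0* are shown first, from 120 bases before to 30 bases after the start given by RefSeq, as the members with a site for which the promoter table had an entry. *Rps10*, *Rps6* and *Rpl5* have no site and are shown for contrast. *Rps10* is among the 3 members nearest outside the 2 kb, Rps6 is the ribosomal substrate of the S6 kinases, and Rpl5 binds the 5S ribosomal RNA. Sequences are from RefSeq on GRCm38.p6, which is the assembly of mm10, and are written in the direction of the gene. The RefSeq table had an entry for 66 of the 86 genes, which did not include *Rps29*. Capitals mark exact matches of the motifs described below and, at the start itself (base 121), a tract of pyrimidines that begins with C and has at least 4 more. The windows lie at chr14:18270957-18271106 on the minus strand (*Rpl15*), chr11:101442125-101442274 on the plus strand (*Rpl27*), chr5:115559347-115559496 on the plus strand (*Rplp0*), chr17:27635215-27635364 on the minus strand (*Rps10*), chr4:86857338-86857487 on the minus strand (*Rps6*) and chr5:107900408-107900557 on the plus strand (*Rpl5*).
Rpl15: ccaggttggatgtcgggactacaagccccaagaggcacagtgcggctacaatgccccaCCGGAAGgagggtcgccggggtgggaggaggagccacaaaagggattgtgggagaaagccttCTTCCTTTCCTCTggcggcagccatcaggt
Rpl27: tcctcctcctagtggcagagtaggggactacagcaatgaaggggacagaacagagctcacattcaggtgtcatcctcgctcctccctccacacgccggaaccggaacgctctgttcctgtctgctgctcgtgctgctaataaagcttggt
Rplp0: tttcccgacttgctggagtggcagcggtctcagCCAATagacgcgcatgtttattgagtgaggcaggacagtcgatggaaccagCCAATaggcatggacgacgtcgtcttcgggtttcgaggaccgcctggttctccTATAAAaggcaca
Rps10: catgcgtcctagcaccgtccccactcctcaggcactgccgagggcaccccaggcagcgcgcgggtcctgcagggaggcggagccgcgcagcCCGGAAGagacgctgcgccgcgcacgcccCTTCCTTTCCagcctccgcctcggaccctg
Rps6: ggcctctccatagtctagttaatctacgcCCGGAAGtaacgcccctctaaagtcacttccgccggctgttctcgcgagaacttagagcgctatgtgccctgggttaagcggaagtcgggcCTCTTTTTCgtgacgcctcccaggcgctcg
Rpl5: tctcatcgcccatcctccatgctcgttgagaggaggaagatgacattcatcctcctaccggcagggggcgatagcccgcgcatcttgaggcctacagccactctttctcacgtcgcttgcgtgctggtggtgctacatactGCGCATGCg
The tract at the RefSeq start of *Rpl15* is 13 bases long, that of *Rps10* is 10 bases long and that of *Rps6* is 9 bases long. The starts given for *Rpl27*, *Rplp0* and *Rpl5* have no such tract. In *Rplp0* a TATAAA begins at base 18 of the transcript, downstream of the annotated start, and a pair of CCAAT matches lies upstream of it. ETS matches of *Rpl15*, *Rps10* and *Rps6* begin at bases -62, -29 and -91 from the start, and an NRF1 match of *Rpl5* begins at base 22 of the transcript. Positions of starts differ between annotations: the RefSeq start of *Rpl15* is 405 bases downstream of its gene-level TSS in GENCODE, that of *Rps10* is 1425 bases downstream, and that of *Rpl27* is 53 bases upstream.

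**Figure D1:**
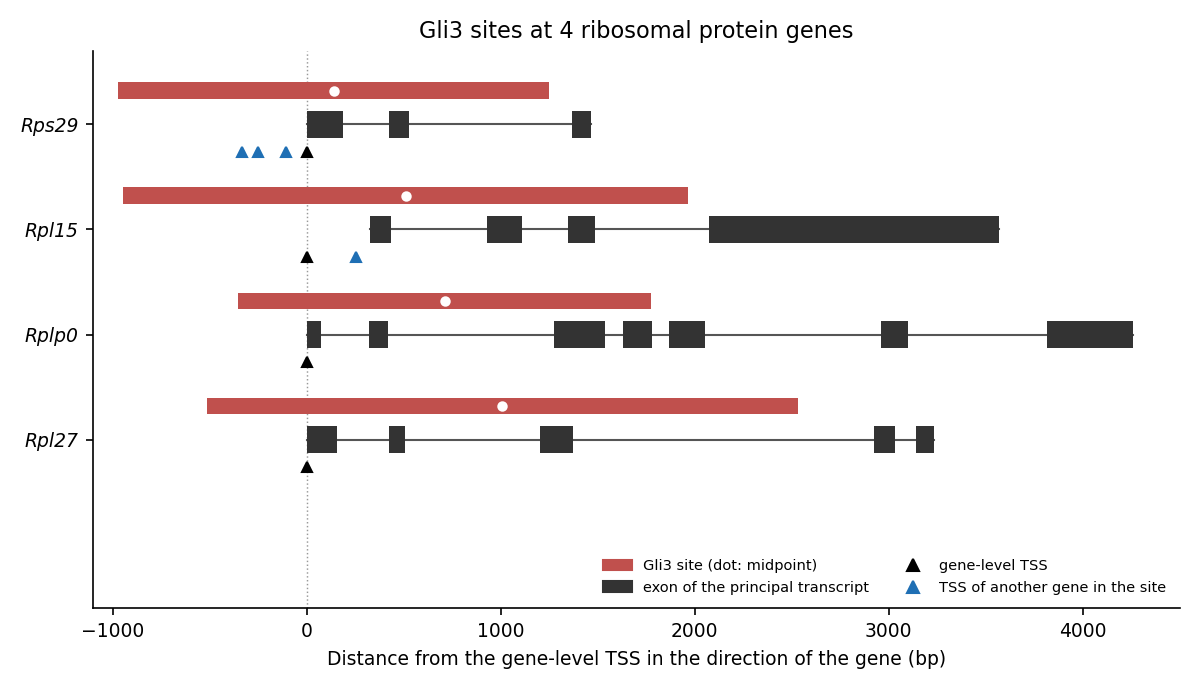
Map of the Gli3 sites at *Rps29*, *Rpl15*, *Rplp0* and *Rpl27*. The x axis is the distance in bp from the gene-level TSS in the direction of the gene, red bars are sites with a white dot at the midpoint, dark boxes are exons of the principal transcript, and triangles are the TSS of the gene (black) and of other genes inside the site (blue). The 4 sites cover the TSS of the ribosomal protein gene and have their midpoint downstream of it, between 138 and 1009 bp.

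All 5 sites covered the TSS and reached farther into the gene than upstream of it. Rplp0 is the protein of the 60S stalk that anchors Rplp1 and Rplp2 and helps to recruit elongation factors. The site at *Rplp0* (chr5:115559115-115561243, 2129 bp) extended 352 bp upstream and 1776 bp downstream of the TSS and touched 4 of its 7 exons.

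Rps29 is a small zinc-binding protein of the 40S subunit, and it was the only member of that subunit with a site. The site at *Rps29* (chr12:69157939-69160157, 2219 bp) extended 971 bp upstream and 1247 bp downstream and touched 2 of 3 exons. It also contained *Rn7s1*, on the opposite strand with a start 109 bp upstream of the *Rps29* TSS, and 2 annotated miRNA genes that overlap it, *Gm47287* and *Gm47295*. *Rn7s1* encodes 7SL RNA, the RNA of the signal recognition particle.

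Rpl15 and Rpl27 are proteins of the 60S subunit. The site at *Rpl15* (chr14:18269424-18272336, 2913 bp) extended 945 bp upstream and 1967 bp downstream and touched 3 of 4 exons. It contained the start of *Nkiras1*, which is transcribed from the opposite strand and encodes an inhibitor of NF-κB signaling, 255 bp downstream of the gene-level TSS of *Rpl15*. The site at *Rpl27* (chr11:101441785-101444829, 3045 bp) was the widest, with 513 bp upstream and 2531 bp downstream, and touched 3 of 5 exons. These sites covered between 41.7% (*Rplp0*) and 85.2% (*Rps29*) of the length of these genes.

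The midpoints lay 138 bp (*Rps29*), 511 bp (*Rpl15*), 712 bp (*Rplp0*) and 1009 bp (*Rpl27*) downstream of the TSS. Over all 5 they ranged from 138 to 1009 bp downstream. Over the 1510 protein-coding genes with a site the median was 188 bp, with quartiles of -178 and 616 bp. Of these 1510 genes, 62.8% had the midpoint downstream and 89.1% had the TSS inside the site. For *Rpl15*, *Rplp0* and *Rpl27* the midpoint was 106, 712 and 1062 bp downstream of the RefSeq start, in the same order as from the gene-level TSS. The median width of the 5 sites was 2219 bp, with a range of 2129 to 3045 bp, beside 2221 bp for the 1344 sites at protein-coding promoters and 1995 bp for all sites. Of the sites at protein-coding promoters, 46.8% were no wider than the narrowest of the 5 (*Rplp0*) and 73.6% were no wider than the widest (*Rpl27*). The sites at ribosomal protein genes thus lay near or above the median width of sites at protein-coding promoters and below their upper quartile of 3100 bp.

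No ribosomal protein gene had more than 1 site, and no site lay inside the body of a member without covering the TSS. The share with more than 1 site was not taken over all protein-coding genes, so its absence in members cannot be called unusual. A site covered the TSS of 5.81% of members and of 6.22% of all protein-coding genes. A site overlapped the body of 5 of the 86 genes (5.81%) and of 11.3% of all protein-coding genes. The median length of the genes was 3328 bp for members and 17425 bp for all protein-coding genes, and the part of gene length in this difference was not tested.

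By subunit, 4 of 52 genes of the 60S group had a site (7.69%, interval 3.03 to 18.2%) and 1 of 34 of the 40S group (2.94%, interval 0.521 to 14.9%), and these intervals overlap. The groups follow the names, so the 40S group includes *Rps19bp1* and *Rps27rt*. In the stalk, *Rplp0* had a site, while for *Rplp1* the nearest midpoint was 42.0 kb downstream and for *Rplp2* it was 9.57 kb upstream. Rpl5 and Rpl11 form a particle with the 5S ribosomal RNA and, like Rpl23 and Rps7, bind Mdm2, the ubiquitin ligase of p53. None of these 4 genes had a site (interval 0 to 49.0%). The nearest midpoints were 812 kb from *Rpl5*, 91.3 kb from *Rpl11*, 22.7 kb from *Rpl23* and 27.8 kb from *Rps7*. *Rps6* had its nearest midpoint at 371 kb and *Rpsa*, which encodes a protein of the 40S subunit also known as the laminin receptor, at 116 kb.

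Diamond-Blackfan anemia is a disorder of red cell production linked to ribosomal protein genes. Of 23 genes linked to it or proposed for it, 3 had a site (*Rpl15*, *Rpl27* and *Rps29*; 13.0%, interval 4.54 to 32.1%). The interval includes the 5.81% of all members and the 6.88% of all protein-coding genes. *Rps19*, the gene most often affected, had its nearest midpoint 189 kb away. None of 5 genes for proteins of the mRNA channel and decoding region had a site (interval 0 to 43.4%). These are *Rps2*, *Rps3*, *Rps14*, *Rps15* and *Rps23*, with the nearest midpoint at 50.6 kb from *Rps3*. *Rpl4* and *Rpl39*, whose proteins line the exit tunnel of the nascent chain, and *Rpl22* had none. None of the 7 copies had a site, nor had *Rps19bp1* or *Rps27rt*. *Rps27a*, which encodes a ribosomal protein fused to ubiquitin, had its nearest midpoint at 174 kb. *Fau* and *Rack1*, which encode further proteins of the ribosome outside the naming rule, had no site.

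Just outside the 2 kb, the nearest midpoints belonged to *Rpl36*, 3133 bp upstream, *Rpl23a*, 5946.5 bp upstream, and *Rps10*, 6173 bp upstream. The site near *Rpl36* was closer to the TSS of *2410015M20Rik* (midpoint at -512 bp), and the site near *Rpl23a* was closer to that of *Rab34*, with its midpoint 1100.5 bp downstream. The site near *Rps10* (chr17:27641963-27643721, 1759 bp) had no nearer protein-coding TSS. Just inside were *Rpl27* at 1009 bp and *Rplp0* at 712 bp, so that no member lay between 1009 and 3133 bp. The site nearest to the copy *Rpl36al* was that of *Rps29*, 25 kb away.

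**Figure D2:**
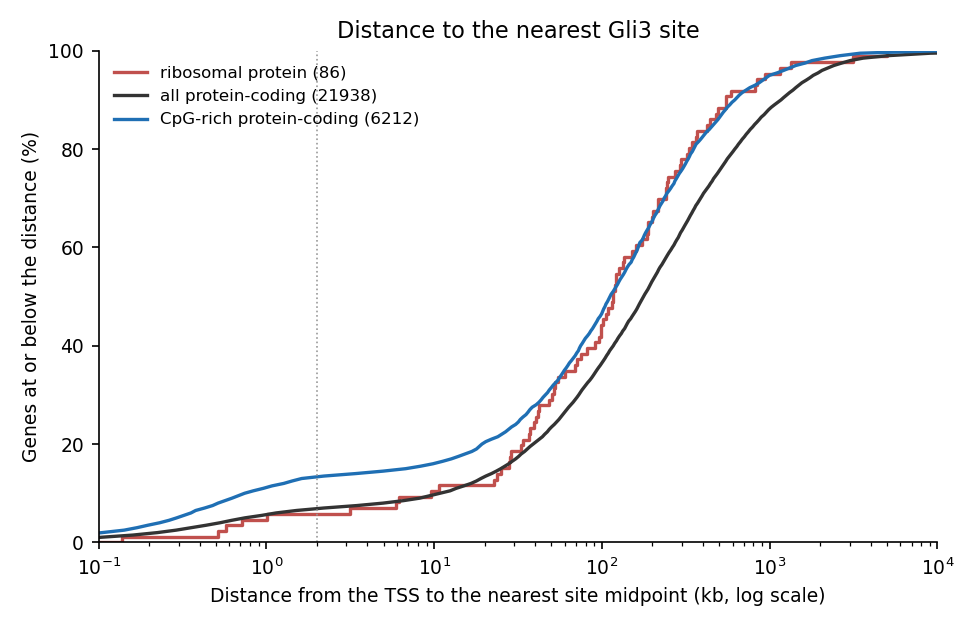
Cumulative share of genes (y axis, %) by distance from the TSS to the nearest site midpoint (x axis, kb, log scale), for ribosomal protein genes (red), all protein-coding genes (black) and protein-coding genes with a CpG-rich promoter (blue). The dotted line marks 2 kb. Medians are 116, 177 and 111 kb.

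The share of members with a site was below that of all protein-coding genes up to 5 kb and at 20 kb, and above it at 10, 50 and 100 kb. At each of these distances the interval of the members includes the share of all protein-coding genes. The differences in either direction thus lie within the counting error over genes. Within 5 kb, 6 members had a site (6.98%, all protein-coding genes 8.02%), within 10 kb, 9 had one (10.5%, all 9.70%), and within 20 kb, 10 had one (11.6%, all 13.4%). Within 50 kb, 25 of 86 had one (29.1%, interval 20.5 to 39.4%), beside 23.5% of all protein-coding genes and 31.5% of CpG-rich ones. Within 100 kb, 38 had one (44.2%, interval 34.2 to 54.7%), beside 36.5 and 46.6%. The median distance to the nearest midpoint was 116 kb in members, 177 kb in all protein-coding genes and 111 kb in CpG-rich ones. For 48 members the nearest midpoint was over 100 kb away, and for 4 (*Rps20*, *Rps12*, *Rpl36a* and *Rpl24*) it was over 1 Mb away, up to 5030 kb at *Rps20*. The share over 1 Mb was not taken over all protein-coding genes. Their upper quartile of distance was 487 kb, beside 265 kb in members, and their largest distance was 40157 kb. Of the 86 genes, 8 were themselves the protein-coding gene nearest to their nearest site. The same share was not taken over all protein-coding genes, so this count cannot be called low or high. For the 81 genes without a promoter site, the nearest site lay upstream for 43 and downstream for 38.

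**Figure D3:**
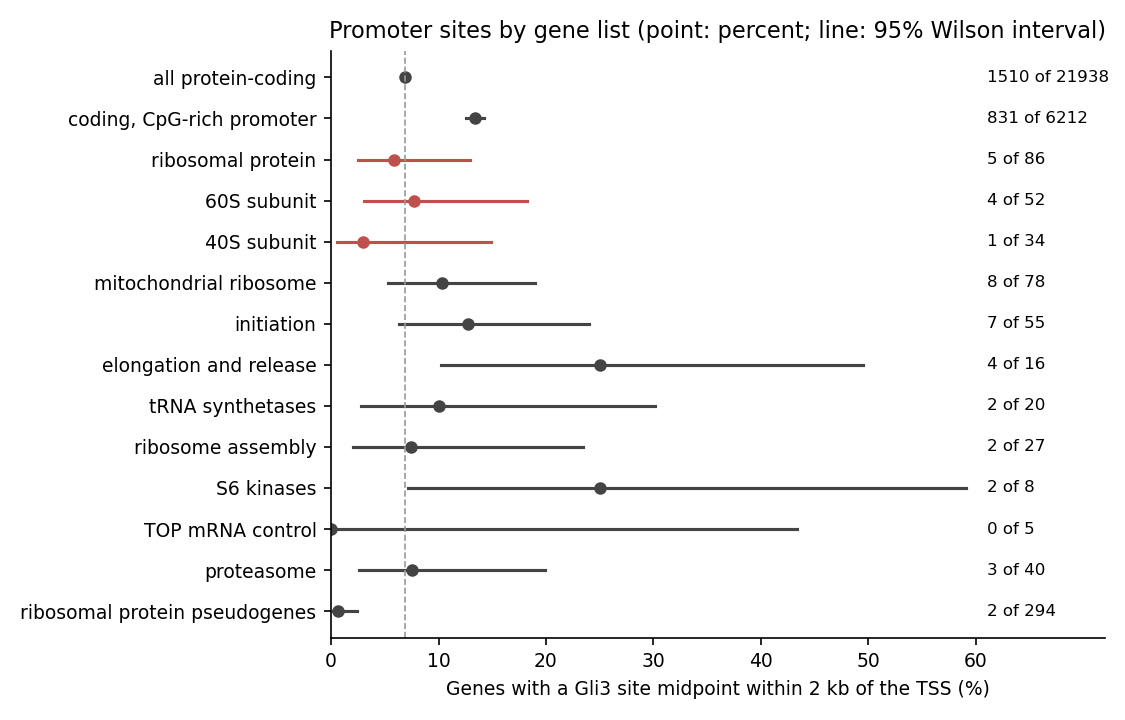
Percent of genes with a site midpoint within 2 kb of the TSS (x axis) for each gene list (y axis), with 95% Wilson intervals as lines and counts at the right. Ribosomal protein genes and their subunits are in red, and the dashed line is the 6.88% of all protein-coding genes. The interval of the ribosomal protein genes overlaps that of each of the other translation lists shown. That of the ribosomal protein pseudogenes lies below the dashed line, which is a share of coding genes and not of pseudogenes.

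Other genes of translation were counted by lists of names in the same way. The mitochondrial ribosome, which has its own set of nuclear-encoded proteins, had a site at 8 of 78 genes (10.3%, interval 5.29 to 19%): *Mrpl14*, *Mrpl17*, *Mrpl23*, *Mrpl47*, *Mrpl52*, *Mrps9*, *Mrps10* and *Mrps36*. Initiation factors and their regulators had one at 7 of 55 genes (12.7%, interval 6.30 to 24.0%). These included *Eif4e*, which encodes the cap-binding protein, with the midpoint at -66.5 bp from the TSS, and *Eif4a1*, which encodes the helicase of the same complex, with the midpoint 1066 bp downstream. The elongation and release list had 4 of 16 (25%, interval 10.2 to 49.5%), but neither *Eef1a1* nor *Eef2*, which encode the main elongation factors, was among them. The 4 genes were *Eef2k*, the kinase of eEF2, *Eef2kmt* and *Eef1akmt3*, which encode methyltransferases, and the exchange factor gene *Eef1d*.

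Cytosolic aminoacyl-tRNA synthetases had a site at 2 of 20 genes (*Kars* and *Mars*, 10.0%) and ribosome assembly at 2 of 27 (*Gar1* and *Npm1*, 7.41%). Of the 8 genes of the *Rps6ka* and *Rps6kb* families, which encode kinases and not ribosomal proteins, 2 had a site (*Rps6ka4* and *Rps6kb2*). None of 5 genes for the control of TOP mRNAs did (*Mtor*, *Rptor*, *Larp1*, *Eif4ebp1* and *Eif4ebp2*). With so few genes the intervals are wide, 7.15 to 59.1% for the kinases and 0 to 43.4% for TOP control. The proteasome, another complex of many proteins present in all cells, had a site at 3 of 40 genes (*Psmc4*, *Psmd10* and *Psmd11*, 7.5%).

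**Figure D4:**
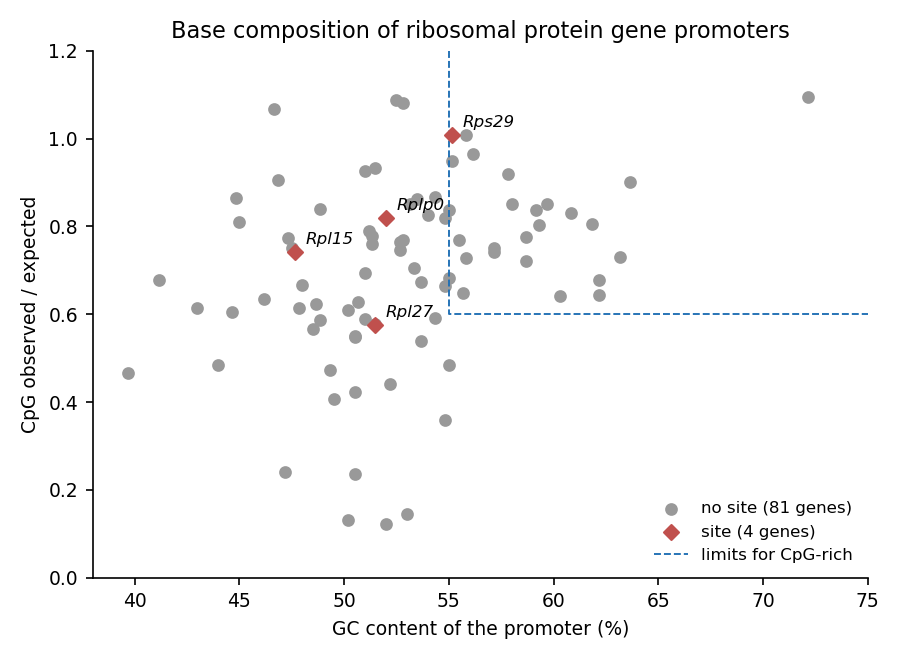
GC content (x axis, %) and observed to expected CpG ratio (y axis) of the promoters of ribosomal protein genes, from 500 bases before to 100 after the TSS. Red diamonds are *Rpl15*, *Rpl27*, *Rplp0* and *Rps29*, which have a site, grey points the 81 without, and dashed lines the limits for a CpG-rich promoter. Of the 4, *Rps29* lies inside the limits, at a GC content of 55.2%.

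The promoters of members and of all protein-coding genes were close in GC content but not in CpG ratio. The median GC content was 52.7% in members and 52.2% in all protein-coding genes, while the median CpG ratio was 0.735 in members and 0.481 in all. A CpG-rich promoter was found for 26 of 86 members (30.2%) and for 28.3% of all protein-coding genes. Of the 26 CpG-rich members, 1 had a site (3.85%, interval 0.682 to 18.9%), beside 13.4% of all CpG-rich genes, which the interval includes. Of the 60 other members, 4 had a site (6.67%, interval 2.62 to 15.9%), beside 4.32% of all other protein-coding genes. GC content ranged from 47.7% (*Rpl15*) to 55.2% (*Rps29*) in the 5 genes with a site and from 39.7 to 72.2% in those without, so the former lay within the range of the latter.

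An exact GLI core was present in 1 of the 5 sites (20%, interval 3.62 to 62.4%), that of *Rpl15*, beside 8.26% of the 1344 sites at protein-coding promoters and 12.2% of all sites. It lies at chr14:18270252-18270260 in an intron of *Rpl15*, 1135 bp downstream of the gene-level TSS. With 1 mismatch allowed, 2 of the 5 sites had a core (40%), those of *Rpl15* and *Rpl27*, beside 62.8% of sites at protein-coding promoters. The central 200 bases of a site held an exact core in 0 of the 5, and in 0.967% of sites at protein-coding promoters. The cores are shown in capitals with 10 bases on either side, on the strand of the match, because they are the only matches of the GLI sequence in these sites. A mismatch is given as the base of the core, its position from 1 at the first G, and the base of the genome.
Rpl15, 1517 bp downstream, C4A: cgattgtcttGACAACCCAttaggaatgg
Rpl15, 1135 bp downstream, exact: gagtgttataGACCACCCAcatcgtgacc
Rpl15, 87 bp upstream, A2T: gggcaccacaGTCCACCCActagcctggt
Rpl27, 34 bp downstream, C8A: caacaactttGACCACCAAccgtggggca
Rpl27, 2212 bp downstream, G1C: gatttggcacCACCACCCAgttaaattgt
Rpl27, 2238 bp downstream, G1A: aaaacaccaaAACCACCCAaagaaaaaca
The core at 34 bp of *Rpl27* lies in its first exon and that at 87 bp upstream of the gene-level TSS of *Rpl15* lies outside the gene. The remaining cores with a mismatch lie in introns. No core, exact or with 1 mismatch, was found in the sites of *Rplp0* and *Rps29*, which says only that these letters do not occur there.

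**Figure D5:**
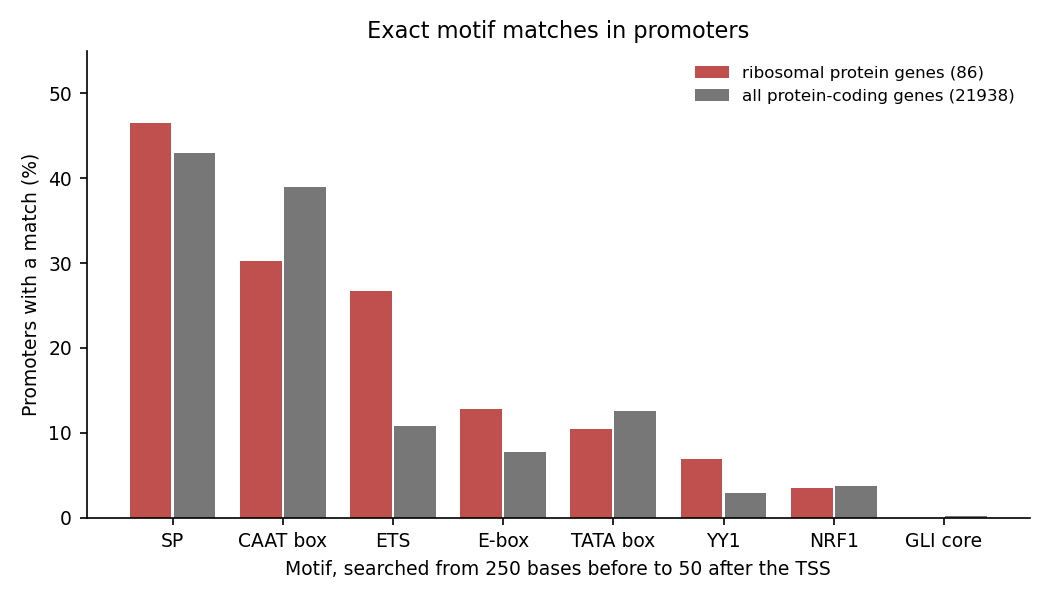
Percent of promoters with an exact motif match on either strand (y axis) for each motif (x axis), from 250 bases before to 50 after the TSS, in ribosomal protein genes (red) and all protein-coding genes (grey). The ETS motif has a match in 26.7% of ribosomal protein promoters and 10.8% of all, and the GLI core in none and 0.219%.

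Promoters were then searched from 250 bases before to 50 after the gene-level TSS for 8 motifs on both strands. The GLI core occurred in 0 of 86 ribosomal protein promoters, where a count of 0 allows a share of up to 3.49% (3 counts of 86), and in 0.219% of all protein-coding promoters. It occurred in 1.66% of protein-coding genes with a site. The ETS motif CCGGAAG, bound by factors such as GABP, occurred in 23 of 86 members (26.7%) and in 10.8% of all protein-coding promoters. None of the 5 members with a site held it in this window, whose place depends on the start: measured from the RefSeq start, *Rpl15* has the match printed above. The YY1 motif AAGATGGC occurred in 6.98% of members and 2.92% of all.

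The E-box CACGTG, bound by Myc and related factors, occurred in 12.8% of members and 7.75% of all, and NRF1 (GCATGCGC) in 3.49 and 3.71%. The SP motif GGGCGG occurred in 46.5% of members and 43.0% of all, and in 3 of the 5 members with a site. TATAAA occurred in 10.5% of members and 12.6% of all, and in 2 of the 5, *Rpl15* and *Rplp0*. CCAAT, bound by NF-Y, occurred in 30.2% of members and 39.0% of all, and in 4 of the 5 with a site, among them *Rpl15*, *Rplp0* and *Rps29*. For *Rpl15* the TATAAA and CCAAT matches were found around the gene-level TSS. The shorter window printed above, around its RefSeq start, holds neither. These matches are descriptions of the sequence and not of binding.

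A TOP start, defined as C followed by at least 4 pyrimidines at the first base of the principal transcript, was annotated for 9 of the 86 members (10.5%) and for 2.27% of all protein-coding genes. Counting any annotated transcript, it was found for 35 members (40.7%) and for 8.52% of all. *Rpl15*, *Rpl27*, *Rplp0* and *Rps29* had none in any transcript. Annotated starts differ between transcripts: for 10 members the gene-level TSS was over 100 bp from that of the principal transcript, and for 3 it was over 2 kb away. The RefSeq start of *Rpl15* has a tract where its GENCODE starts have none. The RefSeq starts of *Rps10* and *Rps6* also have one, while their principal transcripts in GENCODE were counted as having none. The 10.5% thus depends on the annotated starts and is not a measure of how many of these mRNAs begin with a tract.

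Ribosomal protein genes have many processed pseudogenes, so part of their sequence occurs more than once in the genome, and the authors filtered repeats from the reads. To measure this, words of 32 bases were read at steps of 10 bases, and a word was called repeated if the assembly held it at more than 1 place. Within 2 kb of the TSS the median share of repeated words was 11.1% in members and 3.78% in all protein-coding genes. It was 16.9% in the 5 members with a site, with a range of 13.4 to 22.2%, and 10.8% in the 81 without, with a range of 0 to 24.7%, so the groups overlapped.

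Within the sites themselves the share was 9.60% at *Rpl27*, 12.1% at *Rpl15*, 14.3% at *Rplp0* and 19.2% at *Rps29*. The median of all 5 was 14.3%, beside 0.199% for the sites at protein-coding promoters, of which 6.40% were at or above the lowest of the 5 values. Over the 5 sites, 131 of 462 words that touched an exon of the ribosomal protein gene were repeated (28.4%) and 43 of 773 other words (5.56%). At *Rpl15* all 35 repeated words touched its exons. At *Rps29*, 27 of 42 did not, and all 27 touched exons of the other genes annotated there. Whether repeated sequence has a part in the listing or the position of these sites was not tested.

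Of 14 members with another protein-coding gene on the opposite strand, starting within 1 kb upstream or a shorter distance downstream, 1 had a site. This was *Rpl15* with *Nkiras1* (7.14%, interval 1.27 to 31.5%). The share was not taken over all protein-coding genes with such a partner. Of 30 members that host a small RNA gene, 1 had a site (3.33%, interval 0.591 to 16.7%). Both intervals include the 6.88% of all protein-coding genes. A share over all protein-coding genes that host a small RNA was not taken either. For *Rpl15* and *Rps29*, where the start of another gene lies in the site, the gene to which the site belongs cannot be told from its position. The sites at *Rpl27* and *Rplp0* contained no start of another annotated gene.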

How the data were processed

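Cortices of E15 wild-type embryos gave 3 Gli3 ChIP and 3 input DNA libraries. Per the header of the list, the authors mapped 85 bases of each paired read to mm10 with Bowtie2 after a repeat filter, and they deposited positions of peaks, without count or height, as the optimal set by irreproducible discovery rate (IDR), which keeps peaks that recur between replicates. MACS2 and SAMtools are named in the submitters' processing notes. The thresholds of the peak calling and of the IDR analysis, which set the number and width of the sites, are not given in the sources used here. Replicates were joined, so their spread cannot be measured.

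Starts were converted to 1-based coordinates. Sites were assigned by midpoint to GENCODE M21 genes, whose TSS is the outermost base of the gene. The principal transcript is the one ranked highest by the APPRIS annotation. Ties, and genes without an APPRIS principal, were settled by the GENCODE basic set, transcript support level, coding type and length. Sequence came from GRCm38.p6. Word counts covered the primary assembly. Shares have 95% Wilson intervals, and the limit given for a motif with no match is 3 counts. The members and lists were chosen with earlier results of these data known, and no statistical test was made. Genes were named by a fixed rule: all members with a site, the 3 nearest inside and outside 2 kb, and members of the role lists; the 4 farthest were added after their values were seen. Certain genes covered by this naming are not reported here. On simulated data, 500 of 500 assignments and 500 of 500 motif searches were right. Work was done in python 3.11.15 with numpy 2.4.6, scipy 1.17.1, pysam 0.24.0, numba 0.67.0 and samtools 1.23.1.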

Additional observations from a re-analysis of the deposited data

How the results depend on the processing

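The number of ribosomal protein genes with a promoter site was between 4 and 6 under every alternative tried. It was 4 within 1 kb, where *Rpl27* was lost, and 6 within 5 kb, where *Rpl36* was gained. It was 5, and the same 5 genes, with any overlap with the 2 kb, with sites that cover the TSS, with the TSS of any transcript or of the principal transcript, with sites at least as wide as the median, without sites of mostly repeated words and without copies. Leaving out the 7 copies gave 6.33% of 79 genes, and leaving out also *Rps19bp1* and *Rps27rt* gave 6.49% of 77. The share of all protein-coding genes, 6.88%, was 5.68% within 1 kb (members 4.65%), 8.02% within 5 kb (members 6.98%), 7.37% with any overlap, 6.22% with the TSS covered, 8.20% with the TSS of any transcript and 13.4% for CpG-rich genes alone. With the wider sites only it was 4%, and the 5.81% of members then lay above it, not below. The interval of the members, 2.51 to 12.9%, includes both 4% and 6.88%. All 5 sites of members are wider than the median of 1995 bp, so this filter could not lower the share of members. The percent of sites with a GLI core was 20% over the whole site and 0% in the central 200 bases. With promoters of 500 before to 100 after the TSS, matches were at 61.6% for SP, 19.8% for TATAAA and 53.5% for CCAAT in members, beside 49.3, 25.5 and 58.3% in all protein-coding genes, and the GLI core stayed at 0% in members. For the number and percent of genes, the principal TSS, the exclusion of *Rps19bp1* and *Rps27rt* and the exclusion of the *Rps29* site, which left 4 genes, were chosen after seeing the data. No paired analysis was possible because the replicates were joined in 1 list, and for the same reason no replicate could be left out. The depth of the libraries is unknown, so that a promoter without a listed site is not shown to be free of Gli3.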

Other observations

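Pseudogenes of ribosomal proteins were counted in the same way. No share over all pseudogenes or other positions of the genome was taken, so their share cannot be called low for pseudogenes. Of 294 annotated pseudogenes named after a ribosomal protein with the ending -ps, 2 had a midpoint within 2 kb of their start (0.680%, interval 0.187 to 2.45%), *Rpl31-ps13* and *Rps10-ps1*. The site near *Rps10-ps1* was 4815 bp wide, with its midpoint 1912 bp downstream of the start of the pseudogene and at -803 bp from the TSS of *Ensa*. The site near *Rpl31-ps13* was 2750 bp wide, with its midpoint 1018.5 bp downstream, and the nearest protein-coding TSS, that of *Naip1*, was 36285.5 bp away. Around the starts of these pseudogenes the median share of repeated words was 16.1%, beside 11.1% around those of the ribosomal protein genes. Most pseudogenes are copies without the promoter of the parent gene, and reads from their sequence were open to the repeat filter of the authors, the effect of which was not tested.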
